A study of Mus musculus with 4 samples.

Results

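The mitochondrial ribosomal protein genes were followed in myeloid-derived suppressor cells (MDSCs), immature myeloid cells that restrain T cells, taken from mouse bone marrow. Members were the genes whose current symbol starts with Mrpl or Mrps followed by a digit and that had a probe set naming no other gene. They were 77 of the 19938 genes measured, 48 named for the large subunit and 29 for the small subunit. The study compared *lal-/-* mice, which lack lysosomal acid lipase, the enzyme that frees cholesterol and fatty acids from lipoprotein lipids in the lysosome, with *lal+/+* mice. The *lal-/-* group had 2 arrays and the *lal+/+* group had 2 arrays, all from mice of 5 months on an FVB/N background after 10 generations of back-crossing. The labels describe CD11b+ Gr-1+ bone marrow cells, and the methods describe positive magnetic selection for Ly6G. The methods give a number of mice for this RNA but neither source ties mice to arrays, so the p-values speak of variation among the 4 hybridisations alone, part of which may be technical. With 2 arrays against 2, an exact permutation test on a single gene cannot give a two-sided p below 0.333, so the tests below rest on limma, a linear model that shares variance information across genes.

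The mitochondrial ribosome, or mitoribosome, sits in the mitochondrial matrix and translates the few messages encoded in mitochondrial DNA, nearly all of which are core subunits of the respiratory chain and ATP synthase. Its rRNAs come from mitochondrial DNA, whereas its proteins are encoded in the nucleus, made in the cytosol and imported. Many of these proteins have bacterial counterparts, and others are found only in mitochondria. Granulocytes depend largely on glycolysis and lose much of their mitochondrial content as they mature.

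In *lal-/-* MDSCs 62 of the 77 mitochondrial ribosomal protein genes (80.5%) had a positive log2 fold change, against 59.7% of all genes. A gene was called when its fold reached 2 and its Benjamini-Hochberg adjusted p was below 0.05. Of the 77 members, 12 were called higher in *lal-/-* MDSCs and 0 were called lower. The called members were 15.6% of the family, against 7.56% of all genes called higher and 3.24% called lower. All genes include silent ones, and the gap was smaller among genes with a probe set at or above the median level of all probe sets. There, 12 of 73 members (16.4%) were called higher, against 13.5% of genes, and the median log2 fold changes were 0.38 and 0.135. At an adjusted p under 0.05 and any fold, 34 members were higher and 4 were lower, where 19.8% of all genes were higher and 9.85% were lower. Both *lal-/-* arrays lay above both *lal+/+* arrays in 54 members and below both in 8, and in the other 15 the groups overlapped. Over all genes, 41.6% had both *lal-/-* arrays above and 24.1% had both below. The median log2 fold change was 0.38 over the members, within a range of -0.76 to 1.98, and 0.08 over all genes. All 2154 genes with a fold of at least 2 also passed the adjusted p, so the fold decided which genes were called.

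The size of the shift depended on how the arrays were put on one scale. Of all genes called, 70.0% were higher after quantile normalization, 84.9% when each array was only shifted to a common median, and 76.1% in the values as deposited. With a common median, 24 members were called higher, where 13.1% of all genes were, and the members' median change was 0.75 against 0.12 over all genes. With the deposited values, 17 members were called higher, where 10.1% of all genes were, and the median change was 0.57 against -0.05 over all genes. The 12 members called after quantile normalization were among the called members under both of these scalings, and 0 members were called lower under either. At any fold, 55 members were higher and 1 was lower with a common median, and 47 were higher and 2 were lower with the deposited values.

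**Figure D1:**
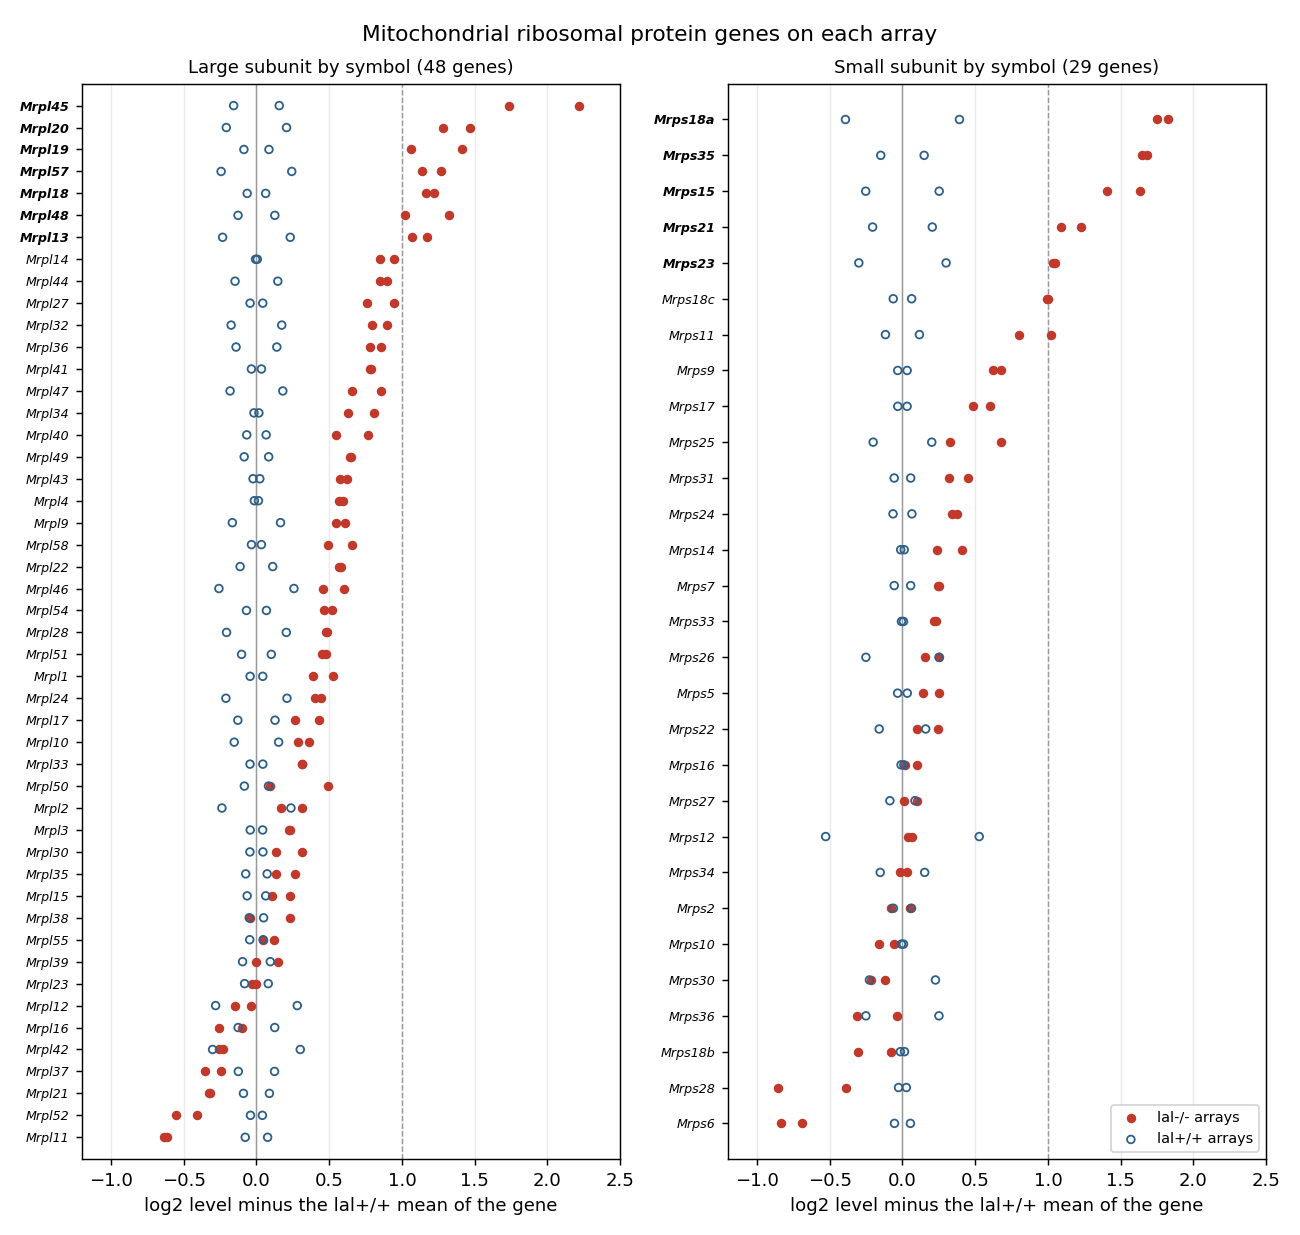
Each row is one mitochondrial ribosomal protein gene, and each point is one array, plotted as its log2 level minus the mean of the *lal+/+* arrays for that gene (filled red, 2 *lal-/-* arrays; open blue, 2 *lal+/+* arrays). The dashed line marks a fold of 2, and the 12 genes called higher, from Mrpl45 at 1.98 down to Mrps23 at 1.04, are in bold.

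The member with the largest increase was Mrpl45, a mitochondrion-specific protein that in pig and human structures lies at the mouth of the peptide exit tunnel and holds the ribosome against the inner membrane. Its log2 level was 7.54 and 8.02 on the *lal-/-* arrays, against 5.96 and 5.65 on the *lal+/+* arrays. Both *lal-/-* arrays were high and the groups did not overlap. Mrpl45 rose 3.93-fold (log2 fold change 1.98, SE 0.19, limma adjusted p = 0.000519). Its *lal+/+* level lay below 6.79, the 95th percentile of olfactory receptor probe sets in *lal+/+*, which stand for silent genes, so the level it had in *lal+/+* is known only as a bound and the fold is uncertain.

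Of the other proteins around the exit tunnel, Mrpl47 and Mrpl22 passed the adjusted p below a fold of 2, with log2 fold changes of 0.76 (adjusted p = 0.0129) and 0.57 (adjusted p = 0.0173) in limma. Both lay within the range of silent probe sets, Mrpl47 in *lal+/+* and Mrpl22 in both genotypes. Mrpl24 (0.42), Mrpl17 (0.34) and Mrpl23 (-0.02) did not pass. With a common median Mrpl24 was called higher at 1.05 (adjusted p = 0.002) and Mrpl23 passed the adjusted p at 0.43 (0.0367). With the deposited values Mrpl24 passed it at 0.87 (0.00663) and Mrpl23 did not, at 0.26 (0.182). The 6 exit tunnel members had a median log2 fold change of 0.50.

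The central protuberance, the crown of the large subunit that faces the small subunit, held 2 of the called members. Mrpl18, whose bacterial counterpart also lies there, had log2 levels of 9.74 and 9.80 on the *lal-/-* arrays, against 8.64 and 8.51 on the *lal+/+* arrays. Mrpl48, a mitochondrion-specific member, had 9.94 and 9.63 on the *lal-/-* arrays, against 8.48 and 8.74 on the *lal+/+* arrays. In both genes the lower *lal-/-* array stood clear of the higher *lal+/+* array. Mrpl18 rose 2.28-fold (log2 fold change 1.19, SE 0.12, limma adjusted p = 0.000632) and Mrpl48 rose 2.25-fold (1.17, SE 0.16, adjusted p = 0.00186). A pseudogene of Mrpl48 is annotated in RefSeq and had no probe set of its own here. The position of the Mrpl48 probe set is not given, so its signal may come in part or wholly from that pseudogene. Of the other members listed here for this crown, Mrpl40 passed the adjusted p with a log2 fold change of 0.66, and Mrpl46 (0.53) and Mrpl38 (0.10) did not. Mrpl46 passed it with a common median, at 0.91 (adjusted p = 0.00429), and with the deposited values, at 0.73 (0.0145). These 5 listed members were chosen after their values were seen and may not be all that lie there. Their median log2 fold change was 0.66.

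Mrpl20 and Mrpl19 have bacterial counterparts that bind the rRNA of the large subunit, and both were called higher. Mrpl20 had log2 levels of 7.62 and 7.80 on the *lal-/-* arrays, against 6.54 and 6.13 on the *lal+/+* arrays. It rose 2.59-fold (log2 fold change 1.37, SE 0.17, limma adjusted p = 0.00128), and its *lal+/+* mean lay below the silent level, so this fold is uncertain too. Mrpl19 had 7.98 and 8.32 on the *lal-/-* arrays, against 6.83 and 6.999 on the *lal+/+* arrays. It rose 2.36-fold (1.24, SE 0.16, adjusted p = 0.00143). Neither gene showed overlap between the genotypes.

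Mrpl57, a small mitochondrion-specific protein, and Mrpl13, another large subunit protein with a bacterial counterpart, were the remaining called members named for the large subunit. Mrpl57 had log2 levels of 8.26 and 8.39 on the *lal-/-* arrays, against 7.37 and 6.88 on the *lal+/+* arrays, and rose 2.30-fold (log2 fold change 1.20, SE 0.18, limma adjusted p = 0.00284). Mrpl13 had 7.82 and 7.71 on the *lal-/-* arrays, against 6.88 and 6.41 on the *lal+/+* arrays, and rose 2.17-fold (1.12, SE 0.17, adjusted p = 0.00338). Its *lal+/+* mean was below the silent level, so its fold is likewise uncertain. In both genes the second *lal+/+* array was the lower, and without that array the log2 fold changes were 0.96 for Mrpl57 and 0.89 for Mrpl13, under the fold threshold.

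The stalk, where elongation factors dock, had no called member. Mrpl11, at the base of the stalk, had log2 levels of 7.82 and 7.85 on the *lal-/-* arrays, against 8.54 and 8.39 on the *lal+/+* arrays. Both *lal-/-* arrays were low, and the difference of -0.63 passed the adjusted p (0.00961, limma) but not the fold of 2. It did not pass under the other scalings, at -0.17 (adjusted p = 0.461) with a common median and -0.35 (0.103) with the deposited values. Mrpl10, which carries Mrpl12, differed by 0.33 and did not pass, but passed at 0.80 (adjusted p = 0.00455) with a common median and at 0.62 (0.0169) with the deposited values. Mrpl12, which also binds the mitochondrial RNA polymerase, had 7.90 and 7.79 on the *lal-/-* arrays, against 7.66 and 8.22 on the *lal+/+* arrays. Its groups overlapped, and its change of -0.09 turned to 0.31 with a common median, 0.13 with the deposited values and 0.19 without the second *lal+/+* array.

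Mrpl2, Mrpl3 and Mrpl4, whose bacterial counterparts reach into the rRNA core of the large subunit, had log2 fold changes of 0.24, 0.23 and 0.58, and of these Mrpl4 passed the adjusted p (0.0103, limma). Mrpl3 also passed it with a common median, at 0.59 (0.00837), and with the deposited values, at 0.41 (0.0431). Mrpl58, a peptidyl-tRNA hydrolase built into the ribosome that can release stalled peptides, also passed it at 0.57 (adjusted p = 0.0149). Mrpl44, which has a ribonuclease III-like fold, stood closer to the threshold. It had log2 levels of 8.22 and 8.17 on the *lal-/-* arrays, against 7.17 and 7.47 on the *lal+/+* arrays, a change of 0.87 (SE 0.14, adjusted p = 0.00411) with no overlap.

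Of the members named for the small subunit, Mrps18a showed the largest increase, although in pig and human structures its protein sits in the large subunit. Its log2 level was 8.63 and 8.70 on the *lal-/-* arrays, against 7.27 and 6.48 on the *lal+/+* arrays. The *lal-/-* arrays were close to each other, the *lal+/+* arrays were 0.78 apart, and the groups did not overlap. Mrps18a rose 3.45-fold (log2 fold change 1.79, SE 0.24, limma adjusted p = 0.00189). Its paralogues lie in the small subunit. Mrps18c, which takes the place of the bacterial protein, had 12.67 and 12.66 on the *lal-/-* arrays, against 11.74 and 11.61 on the *lal+/+* arrays. The change of 0.996 (SE 0.12, adjusted p = 0.00127) was a 1.99-fold increase, just under the threshold. Mrps18b had 7.16 and 6.93 on the *lal-/-* arrays, against 7.22 and 7.25 on the *lal+/+* arrays, a change of -0.19 that did not pass. The differences between the paralogues were not tested.

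Mrps35, a mitochondrion-specific small subunit protein, had log2 levels of 8.78 and 8.81 on the *lal-/-* arrays, against 7.28 and 6.98 on the *lal+/+* arrays. It rose 3.17-fold (log2 fold change 1.66, SE 0.14, limma adjusted p = 0.000301). Mrps15, whose bacterial counterpart binds the small subunit rRNA and touches the large subunit, had 9.38 and 9.61 on the *lal-/-* arrays, against 8.23 and 7.73 on the *lal+/+* arrays. It rose 2.87-fold (1.52, SE 0.19, adjusted p = 0.00135). Neither gene overlapped between the genotypes, and both kept a fold above 2 when any one array was left out.

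Mrps21, a small conserved protein, and Mrps23, a mitochondrion-specific one, were nearer the threshold. Mrps21 had log2 levels of 11.20 and 11.34 on the *lal-/-* arrays, against 10.32 and 9.91 on the *lal+/+* arrays, and rose 2.23-fold (log2 fold change 1.16, SE 0.17, limma adjusted p = 0.00233). Mrps23 had 8.06 and 8.07 on the *lal-/-* arrays, against 7.32 and 6.72 on the *lal+/+* arrays, and rose 2.06-fold (1.04, SE 0.20, adjusted p = 0.00815). The second *lal+/+* array was again the lower in both. Without it the log2 fold changes were 0.95 and 0.74, and 9 members rather than 12 were called higher. Without the first *lal+/+* array 15 were.

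Some small subunit proteins at the decoding site and along the path of the message did not pass after quantile normalization. Mrps12, whose bacterial counterpart guards the accuracy of decoding, had log2 levels of 7.73 and 7.70 on the *lal-/-* arrays, against 7.14 and 8.19 on the *lal+/+* arrays. The *lal-/-* values fell between the *lal+/+* values, whose gap of 1.06 was the widest between replicate arrays of any member. Its change of 0.05 became 0.58 without the second *lal+/+* array and -0.48 without the first. Mrps2 (-0.01), Mrps5 (0.20), Mrps7 (0.25), Mrps16 (0.06) and Mrps22 (0.17) did not pass either. Mrps30, which like Mrps18a sits in the large subunit, differed by -0.17, and Mrps36, now known as a subunit of the 2-oxoglutarate dehydrogenase complex rather than of the ribosome, by -0.18. In both of these the genotypes overlapped. The *lal+/+* means of Mrps5 and Mrps36 lay below the silent level.

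Besides Mrpl11, the members that were lower at an adjusted p under 0.05 were Mrps6, Mrps28 and Mrpl52, and none reached a fold of 2. Mrps6, a conserved small subunit protein, had log2 levels of 6.76 and 6.90 on the *lal-/-* arrays, against 7.54 and 7.65 on the *lal+/+* arrays (log2 fold change -0.76, SE 0.13, limma adjusted p = 0.0045). Mrps28, also of the small subunit, had 7.65 and 7.19 on the *lal-/-* arrays, against 8.06 and 8.01 on the *lal+/+* arrays (-0.62, SE 0.17, adjusted p = 0.0353). Mrpl52, a mitochondrion-specific large subunit protein, had 7.18 and 7.04 on the *lal-/-* arrays, against 7.63 and 7.55 on the *lal+/+* arrays (-0.48, SE 0.13, adjusted p = 0.0279). All 4 genes had both *lal-/-* arrays below both *lal+/+* arrays. With the deposited values Mrps6 (-0.74, adjusted p = 0.0033) and Mrpl52 (-0.42, 0.0468) still passed and Mrps28 (-0.46, 0.089) did not. With a common median Mrps6 passed (-0.56, 0.0127), whereas Mrpl52 (-0.24, 0.253) and Mrps28 (-0.28, 0.298) did not.

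Between the subunits, 7 of 48 large subunit genes (14.6%) and 5 of 29 small subunit genes (17.2%) were called higher. At any fold, 25 large subunit genes passed the adjusted p as higher and 2 as lower, and 9 small subunit genes passed as higher and 2 as lower. The median log2 fold change was 0.49 for the large subunit and 0.23 for the small subunit, a difference of 0.26. Measured from the *lal+/+* mean of each gene, the large subunit median exceeded the small subunit median by 0.24 on each *lal-/-* array, both set against the same *lal+/+* mean. With a common median or with the deposited values the difference was 0.20. No test was made of it, since genes on the same arrays are not replicates. Sorting by place in the ribosome, with Mrps18a and Mrps30 in the large subunit and Mrps36 left out, gave 8 of 50 and 4 of 26 called higher and medians of 0.49 and 0.24. The 46 members with a bacterial counterpart had a median of 0.35 with 6 called higher, and the 30 mitochondrion-specific members had a median of 0.48 with 6 called higher.

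**Figure D2:**
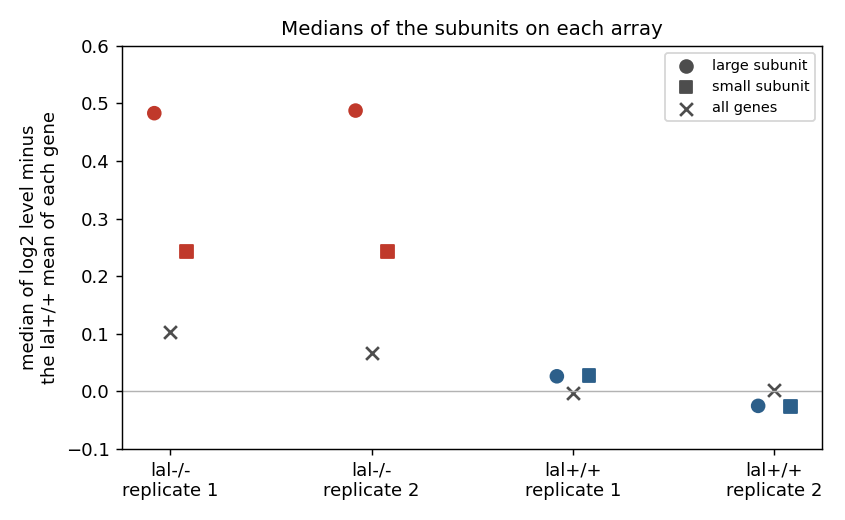
Each point is the median over genes of the log2 level minus the *lal+/+* mean of the gene, on each array (circles, large subunit; squares, small subunit; crosses, all genes; red, *lal-/-*; blue, *lal+/+*). The large and small subunit medians are apart by 0.24 on each *lal-/-* array. The *lal+/+* points lie near 0 by construction, since each gene is centred on the mean of these arrays.

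Of the 77 members, 8 had 2 probe sets that named only them, and the brighter one was used. The sign agreed between the probe sets of each of the 8 genes. Mrpl27, a protein near the peptidyl transferase centre, was the 1 gene called on one probe set and not on the other. Its brighter probe set read 8.49 and 8.30 on the *lal-/-* arrays, against 7.50 and 7.59 on the *lal+/+* arrays, a log2 fold change of 0.85 (SE 0.13, limma adjusted p = 0.00314). Its dimmer probe set read 8.22 and 7.96 on the *lal-/-* arrays, against 6.94 and 5.89 on the *lal+/+* arrays, a change of 1.68 (SE 0.32, adjusted p = 0.00748). Mrpl27, Mrpl23 and Mrps36 have annotated pseudogenes that were not measured apart from them. The positions of the probe sets are not given, so either probe set of these genes, the brighter one included, may read a pseudogene. The probe sets of Mrpl23 differed by -0.02 and -0.04 after quantile normalization. Mean levels lay below the silent level in 3 members in *lal-/-* and in 14 in *lal+/+*. Mrpl22, Mrpl38 and Mrps27 lay below it in both genotypes, so their changes may not reflect the transcript.

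**Figure D3:**
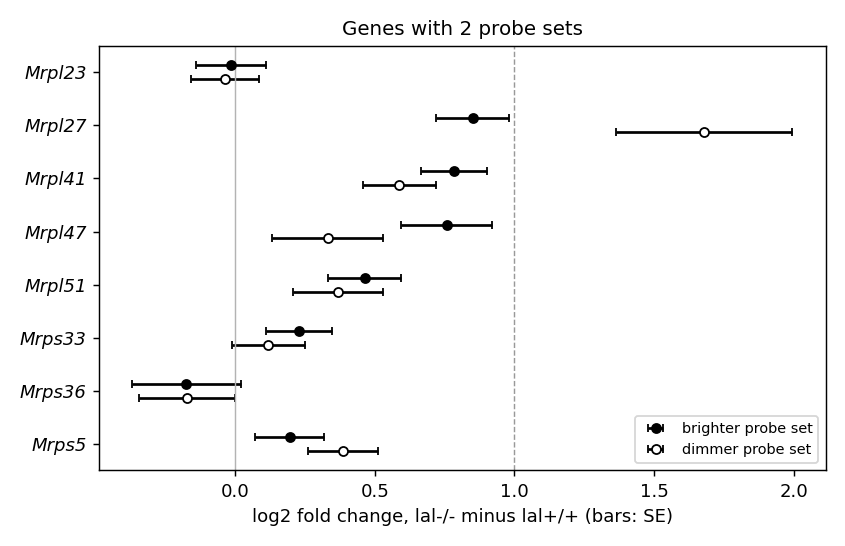
Each pair of points gives the log2 fold change, *lal-/-* minus *lal+/+*, with its SE, from the brighter (filled) and the dimmer (open) probe set of the 8 genes with 2 probe sets. The dimmer probe set of Mrpl27 lies past the dashed line of a 2-fold change at 1.68 and the brighter one at 0.85.

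Promoters of the members were read for 4 motifs, which were named after the values were seen. RefSeq promoter windows (build GRCm38.p6, 300 bases, with 250 before the start and 50 after) were matched for 68 of the 77 members, 9 of the 12 called ones included, in 74 windows. The unmatched members were Mrpl13, Mrpl15, Mrpl19, Mrpl38, Mrpl4, Mrpl54, Mrps28, Mrps34 and Mrps35. Motifs were searched as exact letters on both strands, and no window held overlapping motifs. The motif of GABP, an ETS factor also called nuclear respiratory factor 2, was searched as CCGGAAG and lay in 25 of the 74 windows (33.8%), against 8.86% of all 32851 windows. The YY1 motif AAGATGGCG lay in 8 windows (10.8%, against 1.40% of all windows), the NRF1 motif GCGCATGC in 8 (10.8%, against 2.71%), and the E-box CACGTG, which MYC binds, in 7 (9.46%, against 7.15%). None of the 4 motifs was found in 35 of the windows. Of the 9 called members with a window, 6 held the GABP motif, 1 the YY1 motif, 1 the E-box and 0 the NRF1 motif. A match is a description of the letters and not a binding site. The set of all windows was not limited to genes expressed here. No link between a motif and a change in level was tested.

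The windows below come only from members with a single window. They are those of Mrpl45, the member with the largest increase, and of Mrps6 and Mrpl11, which had the largest decreases. Between these stand the 3 called members with the next largest increases whose window held the GABP motif. Those 3 were picked for the motif and the lower members by size alone, so the printed windows cannot be compared for it. They run 5′ to 3′ on the strand of the gene, with motif letters in capitals. Mrpl45 lies at chr11:97315466-97315765 (plus strand) and held no motif. Mrps18a, at chr17:46110754-46111053 (plus strand), held the GABP motif 26 bases before the annotated start and the YY1 motif 11 bases after it. Mrpl57, at chr14:57825989-57826288 (plus strand), held the GABP motif 4 bases after the start. Mrpl18, at chr17:12916042-12916341 (minus strand), held it 240 bases before. Mrps6, at chr16:92058086-92058385 (plus strand), and Mrpl11, at chr19:4962056-4962355 (plus strand), held no motif.
Mrpl45: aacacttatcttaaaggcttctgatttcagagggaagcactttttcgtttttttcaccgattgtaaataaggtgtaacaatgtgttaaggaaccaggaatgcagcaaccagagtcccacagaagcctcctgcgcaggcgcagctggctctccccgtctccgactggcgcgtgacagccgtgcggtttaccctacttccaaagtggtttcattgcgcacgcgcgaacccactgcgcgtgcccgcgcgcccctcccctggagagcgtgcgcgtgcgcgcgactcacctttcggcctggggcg
Mrps18a: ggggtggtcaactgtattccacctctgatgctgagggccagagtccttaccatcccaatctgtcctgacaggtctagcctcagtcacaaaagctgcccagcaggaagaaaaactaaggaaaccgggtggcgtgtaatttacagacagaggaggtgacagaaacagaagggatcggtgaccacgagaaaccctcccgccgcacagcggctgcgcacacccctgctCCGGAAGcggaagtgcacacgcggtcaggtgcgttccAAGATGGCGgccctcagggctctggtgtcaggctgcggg
Mrpl57: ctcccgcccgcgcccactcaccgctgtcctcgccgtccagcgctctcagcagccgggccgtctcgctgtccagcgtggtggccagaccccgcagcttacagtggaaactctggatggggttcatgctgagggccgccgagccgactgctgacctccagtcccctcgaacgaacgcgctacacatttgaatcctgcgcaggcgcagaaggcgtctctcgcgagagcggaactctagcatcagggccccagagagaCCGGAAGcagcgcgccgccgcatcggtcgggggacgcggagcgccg
Mrpl18: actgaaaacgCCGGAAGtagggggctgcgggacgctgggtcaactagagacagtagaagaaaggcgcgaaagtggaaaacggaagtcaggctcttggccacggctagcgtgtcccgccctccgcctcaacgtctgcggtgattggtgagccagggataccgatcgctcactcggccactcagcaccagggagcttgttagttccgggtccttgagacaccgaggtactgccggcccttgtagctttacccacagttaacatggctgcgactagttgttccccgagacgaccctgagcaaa
Mrps6: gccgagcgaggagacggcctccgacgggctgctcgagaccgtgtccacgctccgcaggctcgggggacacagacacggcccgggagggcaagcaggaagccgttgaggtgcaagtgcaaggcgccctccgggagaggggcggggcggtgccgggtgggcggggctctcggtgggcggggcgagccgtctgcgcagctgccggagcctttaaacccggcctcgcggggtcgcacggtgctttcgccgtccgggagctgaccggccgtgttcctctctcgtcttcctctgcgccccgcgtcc
Mrpl11: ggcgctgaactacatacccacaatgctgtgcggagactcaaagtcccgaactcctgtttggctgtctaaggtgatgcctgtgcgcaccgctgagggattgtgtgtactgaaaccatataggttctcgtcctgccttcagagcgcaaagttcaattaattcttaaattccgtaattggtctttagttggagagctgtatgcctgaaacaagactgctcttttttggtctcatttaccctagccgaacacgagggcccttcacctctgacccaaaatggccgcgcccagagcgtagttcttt

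Of the factors that bind these motifs, Gabpb1, the partner subunit of GABP, had log2 levels of 7.65 and 7.67 on the *lal-/-* arrays, against 7.21 and 6.45 on the *lal+/+* arrays (log2 fold change 0.83, limma adjusted p = 0.0386). Nrf1 had 7.26 and 7.51 on the *lal-/-* arrays, against 6.93 and 6.82 on the *lal+/+* arrays (0.51, adjusted p = 0.0327). Both passed the adjusted p without reaching a fold of 2. The DNA-binding subunit gene Gabpa (0.40) and Yy1 (0.27) did not pass. Myc, a growth-promoting factor, fell by 1.96 (adjusted p = 0.000207), with 7.11 and 7.40 on the *lal-/-* arrays, against 9.30 and 9.12 on the *lal+/+* arrays. Tfam, which packs and transcribes mitochondrial DNA, differed by -0.96 (adjusted p = 0.00135) and so stayed just short of a fold of 2. Of the 20 measured genes for mitochondrial transcription and DNA upkeep, 0 were called higher and 1, Myc, was called lower, and their median was 0.01. At any fold, 2 (10%) passed the adjusted p as higher and 5 (25%) as lower, beside 19.8% and 9.85% of all genes. The lower ones besides Myc and Tfam were Ssbp1 (-0.52), Pprc1 (-0.58) and Ppargc1a (-0.54). Pprc1 and Ppargc1a lay below the silent level in both genotypes. No link between the level of a factor and the changes of the members was tested.

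The other lists of mitochondrial translation had lower medians than the Mrpl and Mrps genes, a difference that was not tested. Of 26 genes for mitoribosome assembly and rRNA modification, 2 were called higher (7.69%, near the share of all genes given above) and 0 were called lower, and the median was 0.19 on the log2 scale. Mterf4, which targets an rRNA methyltransferase to the large subunit, had 7.96 and 7.92 on the *lal-/-* arrays, against 6.78 and 6.61 on the *lal+/+* arrays (1.24, limma adjusted p = 0.000598). The *lal+/+* mean of Mterf4 lay below the silent level, so its fold is uncertain. Rbfa, a small subunit maturation factor, had 8.09 and 8.01 on the *lal-/-* arrays, against 7.04 and 6.89 on the *lal+/+* arrays (1.08, adjusted p = 0.000997). Neither overlapped between the genotypes. Of 16 translation factors, 0 were called in either direction (median 0.15), while 4 passed the adjusted p as higher at any fold and 1 as lower. The elongation factor gene Tufm changed by 0.49 and the initiation factor gene Mtif3 by 0.80, both among those 4, and Lrpprc, which stabilizes mitochondrial messages, was the lower one at -0.77. The *lal+/+* mean of Tufm also lay below the silent level. The 5 measured ribosomal or ribosome-bound proteins without an Mrp symbol gave 0 calls and a median of -0.03, among them Dap3 (0.50) and Ptcd3 (-0.24) of the small subunit and Gadd45gip1 (-0.01) of the large one. Ptcd3 lay below the silent level in both genotypes.

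Set beside other large complexes, the median of the Mrpl and Mrps genes lay between those of the nuclear genes of complex I and the genes of the cytosolic ribosome. Complex I, the first enzyme of the respiratory chain, is built from nuclear subunits and subunits made on the mitoribosome. Of its 34 nuclear genes measured, 13 were called higher (38.2%) and 0 were called lower, and the median was 0.87 on the log2 scale. The largest increases were Ndufs5 (5.21), Ndufb7 (1.89) and Ndufv3 (1.65). The *lal+/+* mean of Ndufs5 lay below the silent level, so its fold is uncertain. Of 62 cytosolic ribosomal protein genes, 1 was called higher and 8 (12.9%) were called lower, with a median of -0.31. The higher one was Rpl7l1 (1.54), a paralogue that takes part in ribosome assembly, and the largest decreases were Rpl26 (-1.55), Rplp2 (-1.50) and Rpl12 (-1.42). The *lal-/-* mean of Rpl12 lay below the silent level, so the size of its decrease is uncertain. The differences between these lists were not tested. The genes encoded in mitochondrial DNA had no named probe set and were not analysed here.

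**Figure D4:**
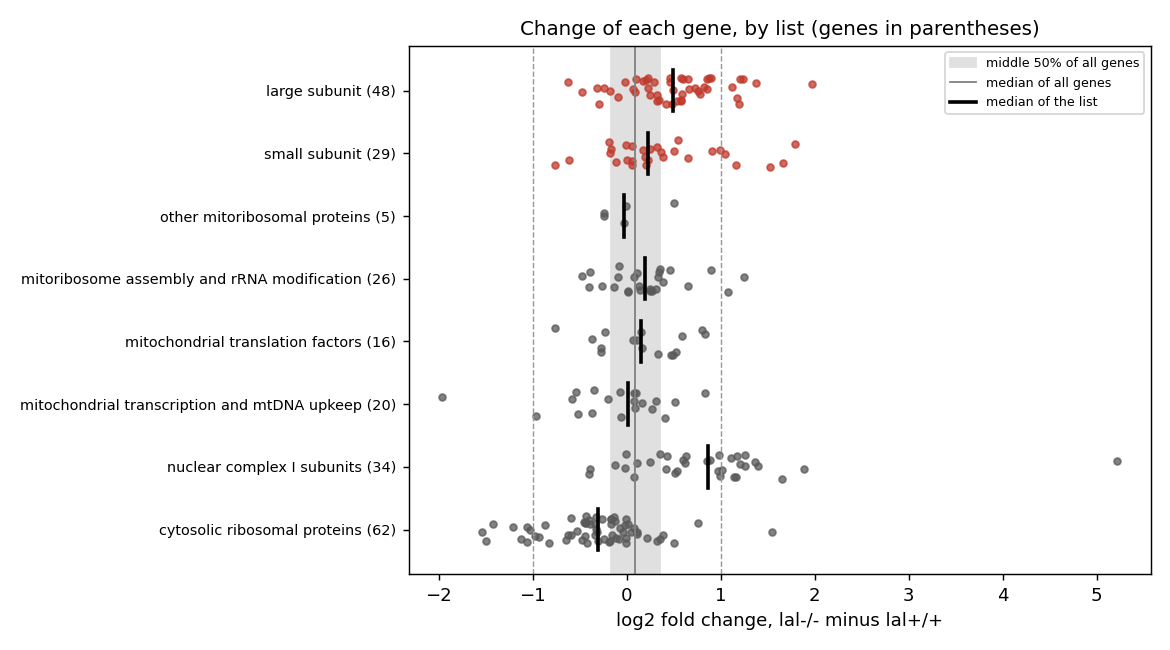
Each point is the log2 fold change of one gene, *lal-/-* minus *lal+/+*, with the list and its number of genes on the left (black bars, list medians; grey band and line, middle 50% and median of all genes; dashed lines, a 2-fold change). The medians run from 0.87 for complex I through 0.49 and 0.23 for the large and small subunit to -0.31 for the cytosolic ribosome.

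Markers of other cell types and of cycling cells also moved with genotype, and their part in the results above was not tested. In RNA from a cell population, fewer cells of a type and less RNA per cell cannot be told apart. Lipa, the deleted gene, fell by 1.85 on the log2 scale (limma adjusted p = 0.000417), and Ly6g and Itgam, which mark the selected cells, rose by 2.88 and 1.19. Neutrophil precursor markers were called higher in 9 of 10, and their summed linear level was 44013 to 45804 on the *lal-/-* arrays, against 18193 to 18863 on the *lal+/+* arrays. Cycling markers were called higher in 6 of 9 (5820 to 6103 in *lal-/-*, against 3683 to 3788 in *lal+/+*), and mature neutrophil markers in 4 of 9, with 1 called lower. B cell markers were called lower in 7 of 7 (504 to 526 in *lal-/-*, against 7358 to 8114 in *lal+/+*), T cell markers in 3 of 4 (479 to 490 in *lal-/-*, against 3152 to 3251 in *lal+/+*) and macrophage markers in 7 of 9 (1642 to 1676 in *lal-/-*, against 7225 to 7924 in *lal+/+*). Of the 4 erythroid markers measured 0 were called. In *lal-/-*, 3 of the 7 B cell markers, 1 of the 4 T cell markers, 4 of the 9 macrophage markers and 1 of the 4 erythroid markers lay below the silent level. In *lal+/+*, 5 of the 10 neutrophil precursor markers, 2 of the 9 cycling markers and 2 of the 4 erythroid markers did.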

How the data were processed

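RNA from bone marrow MDSCs was hybridised by the authors to 4 Affymetrix Mouse Gene 1.0 ST arrays, 2 per genotype. Per the methods, the deposited values are log2 signals per probe set from robust multi-array averaging (RMA). The submitters' processing notes name GCOS 1.1. The array files hold no read depth, and the number of arrays limits the precision. For the probe sets' genome build, the sources used here name none.

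From the deposited log2 values, the 4 columns were quantile normalized and fitted with limma 3.58.1 in R 4.3.3 (genotype as the only term, eBayes) on the 21789 of 35557 probe sets that name 1 gene, with Benjamini-Hochberg adjustment over them. The methods' model has a tissue term, which was dropped because only bone marrow was used here. Thresholds were those of the methods (fold of 2, adjusted p below 0.05). Each gene was represented by its probe set with the highest mean. Symbols were brought up to date through RefSeq (21698 matched, 91 kept as written). Of 78 protein-coding genes with a member symbol in RefSeq, Mrpl53 was not used because its probe set also names another gene.

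The silent level was the 95th percentile of 1035 olfactory receptor probe sets per genotype (6.29 in *lal-/-*, 6.79 in *lal+/+*). Genes named in the text were the called members, a list of members of known role, members whose probe sets were called differently, up to 3 called genes per direction of the other lists, and Lipa, Ly6g and Itgam. The members lower at any fold, the individual genes of the translation factor, transcription and other ribosomal lists, and the exit tunnel, stalk and central protuberance groups were named after their values were seen, as were the motifs and the split by bacterial counterpart. The members and lists were chosen with earlier results of these data known. The model was tested on simulated data. Alternatives were other scalings, a level filter, other variance models, no fold threshold, averaged probe sets, a replicate block and leaving out each array.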

Additional observations from a re-analysis of the deposited data

How the results depend on the processing

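All 12 calls held under the level filter, all probe sets in the adjustment, trended robust variances, averaged probe sets (13 called) and the symbols as written in the platform table. After quantile normalization the family median was 0.38, and 0.40 without Mrps36. With a common median 24 members were called higher, and the family median was 0.75 (0.57 as deposited). The subunit difference with a common median was 0.20 (0.20 as deposited), and 2620 genes were called higher. Calls in the mitochondrial translation lists and the transcription and DNA upkeep list, counted together, were then 8, against 3 after quantile normalization. The ordinary linear model without moderated variances called 0 members, 0 genes in either direction and 0 list genes, while 40 members and 5691 genes had an unadjusted p under 0.05. Without a fold threshold 38 members (34 higher, 4 lower), 5901 genes (3938 higher, 1963 lower) and 17 list genes were called. Leaving out each array gave 9 to 15 called members, a median of 0.36 to 0.42 and 3 to 5 list calls. The cause of these changes was not tested, except that fewer degrees of freedom per gene stand behind the ordinary model.

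Of the members of the naming rule without a call, signs turned for Mrpl12 (0.31 with a common median, 0.13 as deposited, -0.37 to 0.19 when arrays were left out), Mrps2 (0.21 with a common median, 0.032 as deposited, -0.078 to 0.053), Mrps30 (0.044 with a common median, -0.39 to 0.060), Mrps12 (-0.48 to 0.58 when arrays were left out) and Mrps36 (-0.43 to 0.076). Among other members named in the text with a value or level, signs turned for Mrpl23 (0.43 with a common median, 0.26 as deposited, -0.097 to 0.065 when arrays were left out), Mrpl38 (-0.12 as deposited, -0.041 to 0.23) and Mrps27 (-0.023 with a common median, -0.20 as deposited, -0.031 to 0.14).

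The labels number the arrays but do not say that a number marks a shared litter or day, and deviations of same-numbered arrays correlated at -0.18. With the replicate block 12 members, 1508 genes higher and 646 lower were called. With the crossed pairing, added after the data were seen, 12 members were called. With 2 arrays per genotype and 14 members below the silent level in *lal+/+*, small changes cannot be told from array spread.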
